A study of Mus musculus with 15 samples.

Results

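Chemokine receptors, integrin chains and a selectin ligand that T cells use to enter inflamed tissue were followed across naive, antigen-primed and costimulated CD8+ T cells. The set held 9 genes of 55536 in the gene table, chosen by name: the chemokine receptors Cxcr3, Cxcr6, Ccr2 and Cx3cr1, the integrin chains Itga4, Itgb1, Itga1 and Itgal, and Selplg. All 9 passed the filter on low counts, which kept 17366 genes for testing. The cells were CD8+ T cells of OT-I transgenic mice on the C57BL/6J background, in which a transgenic receptor directs T cells to a peptide of ovalbumin.

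For the Naive libraries, cells were taken from untreated OT-I mice outside the transfer experiment. For the Ag libraries, C57BL/6J recipients of OT-I cells were given the peptide, with rat IgG as the antibody control according to the methods. For the Ag+Costim libraries, such recipients received the peptide and agonist antibodies to OX40 (CD134) and 4-1BB (CD137), costimulatory receptors of the TNF receptor family. Each group had 5 libraries, and the labels place collection of transferred cells from spleen and lymph nodes at day 4, whereas the methods give a somewhat earlier time. The methods describe the OT-I donors as deficient in Rag1 or Rag2, so that the transgenic receptor is the only one their T cells can make, and describe each sample as a biological replicate. Naive cells were never transferred, so transfer into a host and priming cannot be told apart in a comparison with Naive. The labels give no age for any library.

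T cells leave the blood in steps. Selectins on the vessel wall catch carbohydrates carried by P-selectin glycoprotein ligand 1 (PSGL-1, the product of Selplg), chemokines bound to the wall signal through G protein-coupled chemokine receptors, and that signal switches integrins to a form that holds the cell. Integrins are pairs of an alpha and a beta chain, so a chain is displayed only with a partner. Itga4 with Itgb1 makes VLA-4, which binds VCAM-1 and fibronectin. Itga4 with Itgb7 makes the gut-homing receptor for MAdCAM-1, Itga1 with Itgb1 makes the collagen receptor VLA-1, and Itgal with Itgb2 makes LFA-1, which binds ICAMs. Cxcr3 is the receptor of the interferon-induced chemokines CXCL9 and CXCL10, Cxcr6 that of CXCL16, Ccr2 that of CCL2 and Cx3cr1 that of fractalkine.

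On the GRCm38 assembly with GENCODE M21, Cxcr3 lies at chrX:101731535-101734269, Cx3cr1 at chr9:119901616-120069879, Cxcr6 at chr9:123806475-123811760 and Ccr2 at chr9:124101950-124113557. Itga4 lies at chr2:79255426-79333123, Itgb1 at chr8:128685654-128733200, Itga1 at chr13:114953096-115101964, Itgal at chr7:127296260-127335138 and Selplg at chr5:113818536-113832644. Promoter windows from 250 bases before to 50 bases after the transcription start were read from RefSeq (GRCm38.p6) for 7 of the 9 genes, Itgal and Selplg having no entry in the table used. The windows of Cxcr3, Cx3cr1 and Itgb1, the genes whose level passed the test in at least 1 comparison below, are shown in the direction of the gene because they differ in base composition and in matches to a motif of RUNX factors. Capitals mark the letters ACCACA, the reverse complement of the RUNX motif TGTGGT. The Cxcr3 window covers chrX:101734098-101734397 on the minus strand, the Cx3cr1 window chr9:120068247-120068546 on the minus strand and the Itgb1 window chr8:128685404-128685703 on the plus strand.
Cxcr3: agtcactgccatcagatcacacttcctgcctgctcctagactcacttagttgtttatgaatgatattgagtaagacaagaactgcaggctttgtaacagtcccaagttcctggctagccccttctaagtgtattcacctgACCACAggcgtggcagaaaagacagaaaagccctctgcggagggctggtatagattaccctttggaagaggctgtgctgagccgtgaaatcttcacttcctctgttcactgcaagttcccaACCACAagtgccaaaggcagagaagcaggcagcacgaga
Cx3cr1: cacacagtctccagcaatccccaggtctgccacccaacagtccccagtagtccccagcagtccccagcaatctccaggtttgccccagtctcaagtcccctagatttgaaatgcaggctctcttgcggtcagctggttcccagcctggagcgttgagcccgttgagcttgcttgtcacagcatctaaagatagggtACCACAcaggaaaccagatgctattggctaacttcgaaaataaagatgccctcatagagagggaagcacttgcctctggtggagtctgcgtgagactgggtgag
Itgb1: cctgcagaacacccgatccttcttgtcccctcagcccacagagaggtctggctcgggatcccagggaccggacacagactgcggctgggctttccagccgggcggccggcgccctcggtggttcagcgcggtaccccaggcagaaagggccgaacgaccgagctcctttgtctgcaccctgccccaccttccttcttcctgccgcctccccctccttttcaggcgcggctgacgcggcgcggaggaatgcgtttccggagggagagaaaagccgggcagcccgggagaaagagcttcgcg

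The RUNX motif, searched on both strands, was found in 4 of the 7 windows and in 16.8% of all 32851 windows of the table. Cxcr3 held it at 110 bases before the start and at position 12 after it, counted to the first base in the direction of the gene. Cxcr6 held it 10 bases before, Cx3cr1 54 bases before and Itga4 60 bases before the start. The T-box motif TCACACC, in 3.98% of all windows, was found in the Itga4 window alone of the 7, at 165 bases before the start. The AP-1 motif TGANTCA (7.81% of all windows) and the ETS motif CCGGAAG (8.86%) were in none of the 7, and no matches overlapped. The Itgb1 window was 67.3% G+C and held 27 CpG dinucleotides, more than 84.5% of all windows. The Cxcr3 window held 4 CpG at 49.3% G+C, and the Ccr2 window 1 CpG at 38% G+C, against medians of 7 CpG and 52.7% over all windows. A match in these letters is a description and does not show that a factor binds there.

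Libraries were uneven in depth and in content. Total counts ranged from 4865952 in Ag 3 to 25280667 in Naive 3, and the lowest count of any of the 9 genes in a library was 14, for Cx3cr1. In Ag 3, 16.9% of sequenced reads were counted, against 37.4% to 53.6% in the other 14 libraries. The input recorded for library preparation, which carries no unit, was 1.4 for Ag 2 and 1.8 for Ag 5, and from 7 to 10 for the rest. Lane 2 carried the Ag libraries with Ag+Costim 1 to 3, and lane 3 the Naive libraries with Ag+Costim 4 and 5, so that lane and group cannot be told apart between Ag and Naive. The CD8 T cell marker Cd8a was between 415 and 992 CPM (each count scaled by the total count of its library) in all 15 libraries, and Cd4 was at most 4.52 CPM. Summed markers of other cells stood apart in single libraries: 8 neutrophil genes came to 1109 CPM in Naive 5 and at most 100.1 elsewhere, and 7 erythroid genes to 1243 CPM in Ag 3 and at most 169 elsewhere. The sum of 10 B cell markers ran from 590 to 1105 CPM among Naive libraries, from 573 to 1575 among Ag libraries and from 474 to 719 among Ag+Costim libraries. In Ag vs Naive, edgeR called 5 of the 9 tested higher, where 3.05% of all genes tested were called higher. The sum of 8 CD8 T cell markers ran from 6405 to 10470, from 5187 to 9847 and from 5535 to 6703 CPM in the order Naive, Ag and Ag+Costim. Of the 8, 4 were called lower in Ag+Costim vs Naive, where 23.6% of all genes tested were called lower. The 6 CD4 T cell markers summed to 58.6 to 95.0, 58.5 to 179 and 38.1 to 73.7 CPM, the 8 dendritic cell markers to 86.9 to 145, 80.4 to 179 and 109 to 158, the 8 NK cell markers to 26.2 to 149, 28.5 to 110 and 15.2 to 40.3, and the 6 platelet markers to at most 2.54, 20.6 and 0.918 in the same order. Of these lists, Cd209a was at 0 throughout Ag+Costim and Gp9 throughout Naive. The part of such cells in the results was not tested.

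**Figure D1:**
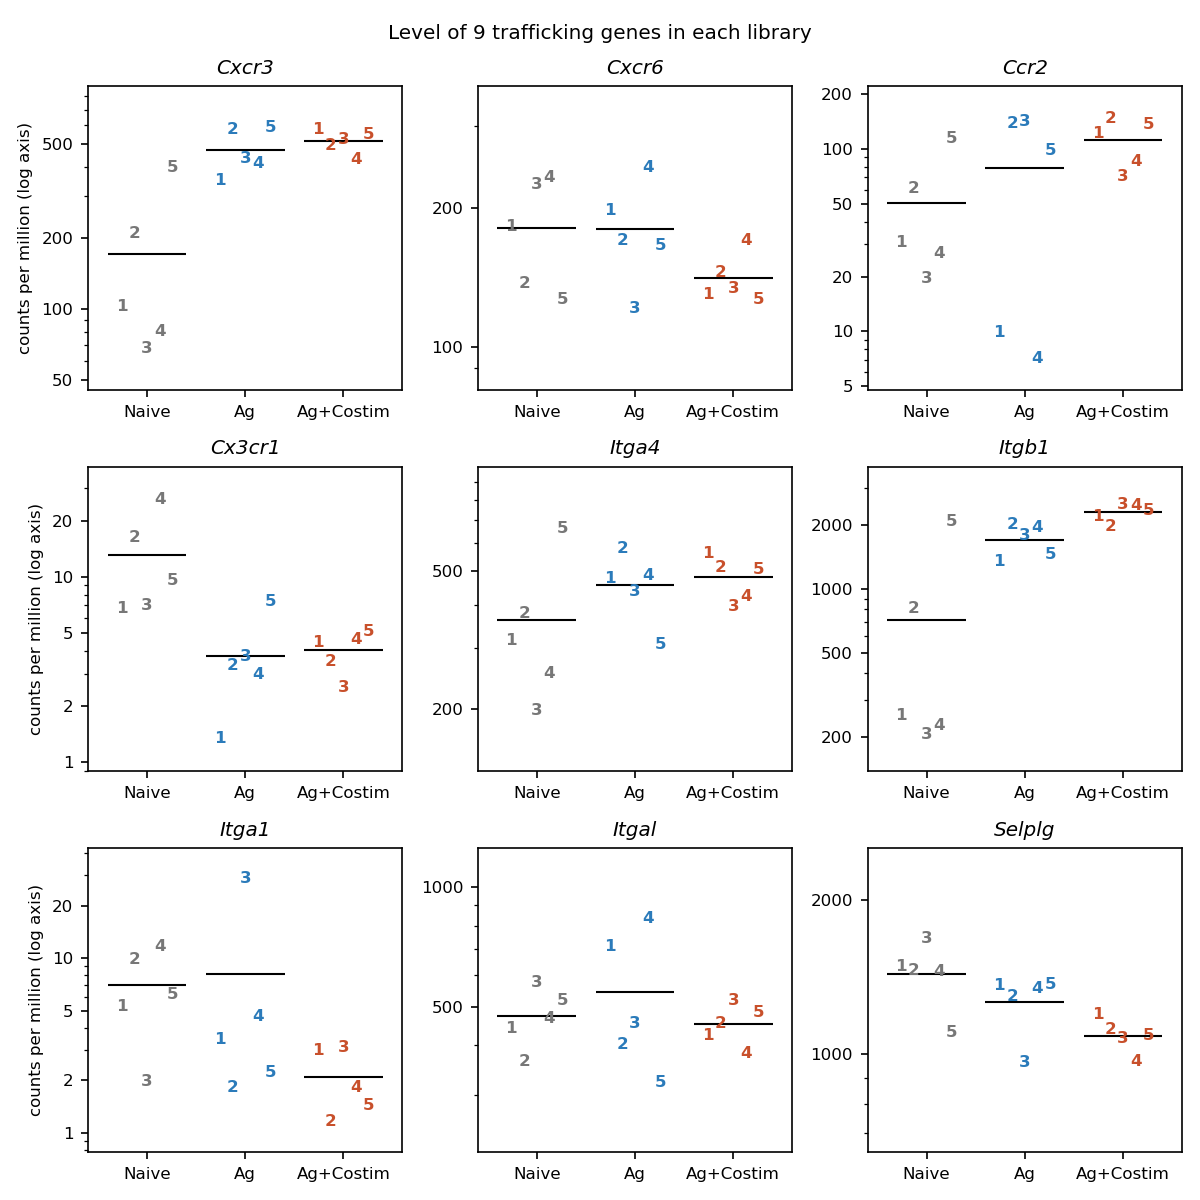
Level of each of the 9 genes in CPM on log axes, with every library drawn as its replicate number and a line at the group mean of 5 libraries. Naive 5 lies within the Ag+Costim range for Ccr2 and Itgb1, and within the Ag range but below all Ag+Costim libraries for Cxcr3. Ag 1 and Ag 4 lie far below the other Ag libraries for Ccr2, and Ag 3 lies alone for Itga1.

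Against Naive, Cxcr3 was higher and Cx3cr1 lower in both transferred groups, and Itgb1 was called higher in Ag+Costim. For none of the 3 was a difference between Ag+Costim and Ag called. In Ag vs Naive, edgeR's quasi-likelihood test called 1 of the 9 genes higher (Cxcr3) and 1 lower (Cx3cr1) at a Benjamini-Hochberg adjusted p under 0.05, where 3.05% of the 17366 genes tested were called higher and 3.66% lower. In Ag+Costim vs Naive it called 2 higher (Cxcr3 and Itgb1) and 1 lower (Cx3cr1), where 21.0% of all genes were called higher and 23.6% lower. In Ag+Costim vs Ag it called 0 of the 9, with 1 at an unadjusted p under 0.05, as had 4647 of the 17366 genes tested. The edgeR background was 0.0288% of genes called higher and 0.00576% lower, 6 genes in all. DESeq2 called 1 of the 9 (Itga1) there, and 5582 of the 48768 genes it tested. With lane as a term in the fit, 0 of the 9 were called in any comparison, at log2 fold changes for Ag+Costim vs Naive of 1.65 for Cxcr3, 1.88 for Itgb1 and -1.26 for Cx3cr1 and for Ag vs Naive of 1.46 for Cxcr3 and -1.15 for Cx3cr1. Of all 17366 genes, that fit called 943 for Ag+Costim vs Naive and 0 for each of the other comparisons. Within lane 2 (Ag+Costim 1 to 3 against all Ag libraries), 0 of the 9 and 0 of all 16920 genes were called. Where no gene at all was called, a count of 0 does not set the 9 genes apart. The median log2 fold change of the 9 genes was 0.29, 0.10 and 0.08 for Ag vs Naive, Ag+Costim vs Ag and Ag+Costim vs Naive, against 0.08, -0.10 and -0.08 over all genes tested. Ag and Ag+Costim are each compared with the same Naive libraries, so those comparisons are not independent. In bulk RNA a lower level can come from fewer expressing cells or from less RNA in each cell, which cannot be told apart here.

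CPM values did not overlap between groups for 2 of the 9 genes in Ag+Costim vs Naive, Cxcr3 above and Cx3cr1 below, where this held for 18.3% of all genes above and 27.3% below. For Ag vs Naive the groups overlapped for all 9 genes, where 1.36% of all genes lay apart above and 2.26% below. For Ag+Costim vs Ag they also overlapped for all 9, where 4.84% lay apart above and 2.20% below.

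**Figure D2:**
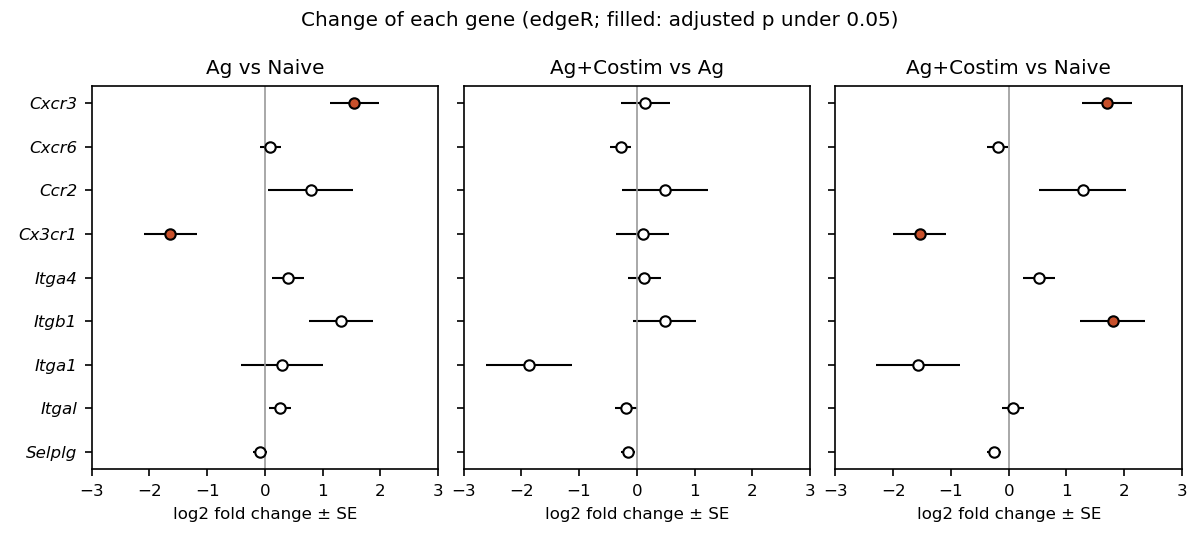
Log2 fold change of each gene with its standard error in the 3 comparisons, from the edgeR fit to all 15 libraries, with filled points for an adjusted p under 0.05. Cxcr3 and Cx3cr1 are filled in both comparisons with Naive, Itgb1 in Ag+Costim vs Naive, and none in Ag+Costim vs Ag.

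Among the chemokine receptors, Cxcr3 was at 102, 209, 67.6, 80.4 and 399 CPM in Naive 1 to 5. It was at 352, 578, 433, 415 and 588 CPM in Ag 1 to 5 and at 577, 493, 522, 432 and 551 CPM in Ag+Costim 1 to 5. Every library of the transferred groups lay above Naive 1 to 4, and Naive 5 lay between Ag 1 and Ag 4. The group means were 172 ± 139, 473 ± 105 and 515 ± 56.1 CPM (SD, n = 5) for Naive, Ag and Ag+Costim. The log2 fold change was 1.55 (SE 0.43, edgeR adjusted p = 0.0451) for Ag vs Naive and 1.70 (SE 0.43, adjusted p = 0.0112) for Ag+Costim vs Naive. For Ag+Costim vs Ag it was 0.15 (SE 0.42, adjusted p = 0.833), a difference within the spread of the libraries. The call in Ag vs Naive was lost without Ag 2 or Ag 5 (edgeR adjusted p = 0.0947 each), Ag 3 (0.0571), Naive 1 (0.127), Naive 2 (0.0646), Naive 3 (0.107) or Naive 4 (0.122), at log2 fold changes of 1.34 to 1.61. Without Naive 5 the log2 fold change was 2.19 for Ag vs Naive (adjusted p = 0.00135) and 2.35 for Ag+Costim vs Naive (adjusted p = 0.000344). Within lane 3, where 2 Ag+Costim libraries met all Naive libraries, the log2 fold change was 1.67 (adjusted p = 0.0755).

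Cx3cr1, a receptor used as a marker of cytotoxic effector T cells and also carried by monocytes, was low throughout. It was at 6.73, 16.3, 7.04, 26.0 and 9.55 CPM in Naive 1 to 5, at 1.34, 3.31, 3.70, 2.98 and 7.33 CPM in Ag 1 to 5 and at 4.44, 3.49, 2.54, 4.61 and 5.05 CPM in Ag+Costim 1 to 5. Ag+Costim libraries all lay below the lowest Naive library, and of the Ag libraries Ag 5 alone lay above it. Cx3cr1 fell by 1.64 on the log2 scale (SE 0.46, edgeR adjusted p = 0.0489) in Ag and by 1.54 (SE 0.46, adjusted p = 0.0195) in Ag+Costim, each against Naive. The difference of Ag+Costim from Ag was 0.10 (SE 0.46, adjusted p = 0.901). In Ag vs Naive, the call was lost without any 1 of Ag 1 to 4 or Naive 1 to 4 (adjusted p from 0.0536 without Ag 1 to 0.157 without Naive 4, log2 fold changes of -1.80 to -1.26). In Ag+Costim vs Naive it was lost without Naive 4 (-1.15, adjusted p = 0.0669) and with no filter on low counts (-1.34, adjusted p = 0.0621). Without Naive 5 the log2 fold change was -1.70 for Ag vs Naive (adjusted p = 0.0290) and -1.60 for Ag+Costim vs Naive (adjusted p = 0.0164). Within lane 3 the log2 fold change for Ag+Costim vs Naive was -1.26 (adjusted p = 0.106).

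Ccr2, which guides cells along CCL2, had the widest spread within a group. It was at 9.83, 139, 142, 7.12 and 98.0 CPM in Ag 1 to 5, a 19.9-fold range. In Naive 1 to 5 it was at 30.6, 60.7, 19.6, 26.9 and 115 CPM, and in Ag+Costim 1 to 5 at 122, 148, 70.7, 85.8 and 137 CPM. Ag 1 and Ag 4 lay below every other library, while Ag 2, Ag 3 and Ag 5 lay within the Ag+Costim range. The log2 fold changes of 0.79 (SE 0.74), 0.49 (SE 0.74) and 1.28 (SE 0.75) for Ag vs Naive, Ag+Costim vs Ag and Ag+Costim vs Naive did not pass the test (edgeR adjusted p = 0.474, 0.687 and 0.167).

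Ccr2 and Cx3cr1 are also genes of monocytes, whose 12 markers summed to 15.1 to 197 CPM in the Naive libraries, 66.4 to 154 in the Ag libraries and 82.9 to 165 in the Ag+Costim libraries, with none at 0 throughout a group. Of the 10 of these markers tested, edgeR called 1 higher and 0 lower in each comparison with Naive and 0 in Ag+Costim vs Ag. Of all genes, 3.05% were called higher and 3.66% lower in Ag vs Naive, and 21.0% and 23.6% in Ag+Costim vs Naive. The sum was 76.2, 66.4, 154, 79.2 and 82.3 CPM in Ag 1 to 5 and 15.1, 108, 32.7, 40.9 and 197 CPM in Naive 1 to 5. Ag 3, Naive 5 and Naive 2 thus had both a high sum and a high Ccr2 level for their groups, while Ag 1 and Ag 4, lowest in Ccr2, had sums between those of Ag 2 and Ag 5. The 8 NK cell markers summed to 30.6, 149, 26.2, 71.3 and 72.6 CPM in Naive 1 to 5, where Cx3cr1 was highest in Naive 4 and Naive 2. Of the 7 NK cell markers tested, edgeR called 0 higher and 3 lower in Ag+Costim vs Naive, and 0 in the other comparisons. The part of monocytes and NK cells in the Ccr2 and Cx3cr1 values was not tested.

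Cxcr6 differed little between groups. Its means were 180 ± 48.4, 180 ± 45.1 and 141 ± 17.4 CPM in Naive, Ag and Ag+Costim, and its lowest and highest values over the 15 libraries were 121 CPM (Ag 3) and 244 CPM (Ag 4). The log2 fold changes were 0.09, -0.28 and -0.19 (SE 0.18 each) for Ag vs Naive, Ag+Costim vs Ag and Ag+Costim vs Naive, with edgeR adjusted p = 0.759, 0.325 and 0.379.

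Among the integrins, Itgb1, the beta chain of VLA-1 and VLA-4, had the largest difference in CPM. It was at 251, 804, 206, 227 and 2077 CPM in Naive 1 to 5. It was at 1345, 2025, 1782, 1953 and 1448 CPM in Ag 1 to 5 and at 2195, 1983, 2512, 2491 and 2339 CPM in Ag+Costim 1 to 5. Naive 5 stood above all Ag libraries and above Ag+Costim 2, while Naive 1 to 4 stood below all libraries of both transferred groups. Itgb1 rose in Ag+Costim vs Naive by 1.80 on the log2 scale (SE 0.56, edgeR adjusted p = 0.0226). For Ag vs Naive the log2 fold change was 1.32 (SE 0.55, adjusted p = 0.138), and for Ag+Costim vs Ag 0.48 (SE 0.54, adjusted p = 0.582). Without Naive 5, the value was 2.32 for Ag vs Naive (adjusted p = 0.00208) and 2.81 for Ag+Costim vs Naive (adjusted p = 0.000307). The call in Ag+Costim vs Naive was lost without Naive 1 (1.58, adjusted p = 0.0563) or Naive 4 (1.57, adjusted p = 0.0542), and within lane 3 the log2 fold change was 1.91 (adjusted p = 0.120).

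Itga4, the alpha chain that pairs with Itgb1 or Itgb7, moved less than Itgb1. It was at 316, 376, 199, 254 and 662 CPM in Naive 1 to 5, at 474, 580, 436, 483 and 307 in Ag 1 to 5 and at 559, 510, 396, 422 and 505 in Ag+Costim 1 to 5. Naive 5 had the highest value of all 15 libraries. The log2 fold changes were 0.40, 0.13 and 0.53 (SE 0.28 each; edgeR adjusted p = 0.329, 0.781 and 0.124) in the order Ag vs Naive, Ag+Costim vs Ag and Ag+Costim vs Naive. Without Naive 5, Itga4 was called in both comparisons with Naive, as part of 4 genes called in each, the others being Cxcr3, Cx3cr1 and Itgb1.

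Itgb7, the other partner of Itga4, was more even than Itgb1. It was at 959, 866, 1088, 917 and 1075 CPM in Naive 1 to 5, between 1066 and 1291 CPM in Ag and between 1197 and 1284 CPM in Ag+Costim. It rose by 0.41 on the log2 scale in Ag (SE 0.11, edgeR adjusted p = 0.0424) and by 0.48 in Ag+Costim (SE 0.11, adjusted p = 0.00842), each against Naive. The ratio of Itgb1 to Itgb7, taken as log2 of CPM plus a pseudocount of 1 CPM, was -1.93, -0.11, -2.40, -2.01 and 0.95 in Naive 1 to 5. It was 0.16, 0.65, 0.74, 0.62 and 0.18 in Ag 1 to 5 and 0.80, 0.71, 1.06, 1.06 and 0.86 in Ag+Costim 1 to 5. Itgb1 counts thus outnumbered Itgb7 counts in every transferred library and in Naive 5, and not in Naive 1 to 4.

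The mean log2 ratio was higher by 0.43 in Ag+Costim than in Ag (0.90 ± 0.16 against 0.47 ± 0.28, SD, n = 5; exact two-sided permutation test, p = 0.0159, Benjamini-Hochberg adjusted over 3 comparisons 0.0476). The groups overlapped by 1 library on each side, Ag 3 at 0.74 and Ag+Costim 2 at 0.71. Against Naive (-1.10 ± 1.45), the difference was 2.0 for Ag+Costim (exact permutation p = 0.0317, adjusted 0.0476) and 1.57 for Ag (exact permutation p = 0.0873, adjusted 0.0873). The smallest p this test allows with 5 against 5 is 0.00794. Without Naive 5 the Ag vs Naive difference was 2.08 (exact permutation p = 0.0159). Leaving out Ag+Costim 3 or 4 or any 1 of Naive 1 to 4 gave an exact permutation p of 0.0635 for Ag+Costim vs Naive. In Ag+Costim vs Ag, neither gene alone was called (edgeR adjusted p = 0.582 for Itgb1 and 0.729 for Itgb7). The ratio was chosen with earlier results of these data known, a choice that the adjustment over 3 comparisons does not cover.

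**Figure D3:**
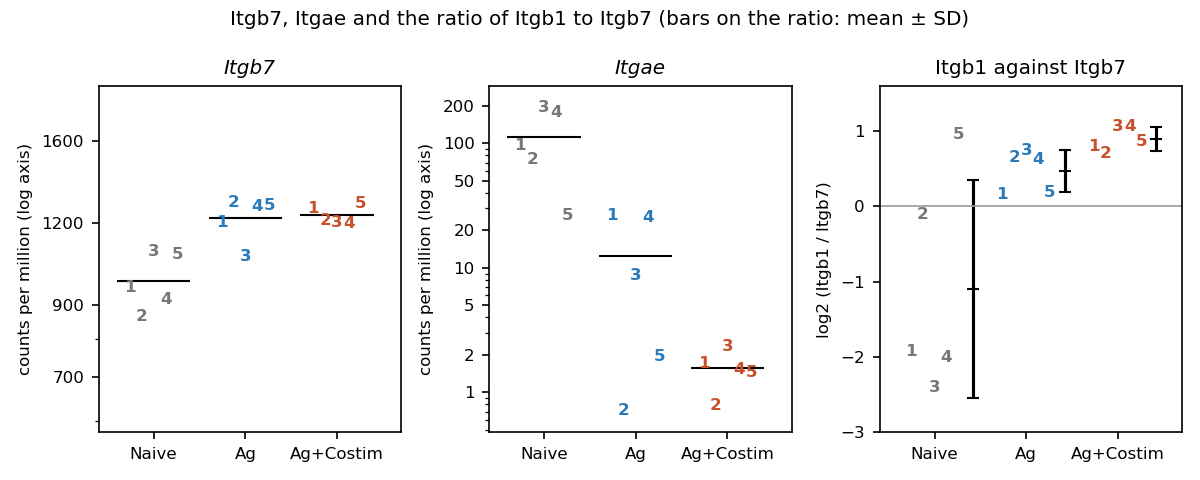
CPM of Itgb7 and Itgae on log axes and the log2 ratio of Itgb1 to Itgb7, with every library drawn as its replicate number, lines at group means and bars of 1 SD around the mean ratio. Ratios, taken from CPM without scaling by transcript length, are above 0 in all 10 transferred libraries and in Naive 5. Itgae falls from a mean of 113 CPM in Naive to 1.56 CPM in Ag+Costim.

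Itgae, the alpha chain that joins Itgb7 to bind E-cadherin, moved the other way. It was at 96.4, 74.6, 193, 176 and 26.2 CPM in Naive 1 to 5, at 26.2, 0.713, 8.63, 25.3 and 1.94 CPM in Ag 1 to 5 and at 1.71, 0.776, 2.34, 1.52 and 1.44 CPM in Ag+Costim 1 to 5. Itgae fell by 3.16 on the log2 scale in Ag (SE 0.76, edgeR adjusted p = 0.0267) and by 6.00 in Ag+Costim (SE 0.88, adjusted p = 0.00155), each against Naive. Its difference of -2.84 in Ag+Costim vs Ag (SE 0.80) had an adjusted p of 0.0818.

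Itga1, the collagen-binding chain of VLA-1, was near the lower limit of what these libraries resolve. It was at 5.28, 9.91, 1.98, 11.7 and 6.19 CPM in Naive 1 to 5, at 3.44, 1.82, 28.6, 4.67 and 2.22 in Ag 1 to 5 and at 2.98, 1.16, 3.07, 1.82 and 1.44 in Ag+Costim 1 to 5. Ag 3 stood far above the other 4 Ag libraries, and it was also the library of lowest depth and highest erythroid marker sum. The difference of -1.87 in Ag+Costim vs Ag (SE 0.74) had an edgeR adjusted p of 0.130, and that of -1.57 in Ag+Costim vs Naive (SE 0.72) one of 0.0854. DESeq2 called Itga1 lower in Ag+Costim vs Naive (-1.61, adjusted p = 0.0433), as did edgeR on those 2 groups alone (adjusted p = 0.0103) and voom (adjusted p = 0.00356). The value for Ag vs Naive was 0.29 (SE 0.71, adjusted p = 0.799) with Ag 3 and -1.15 (adjusted p = 0.128) without it, and that for Ag+Costim vs Ag was -0.42 (adjusted p = 0.580) without it.

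Itgal, the alpha chain of LFA-1, was at 710, 402, 455, 836 and 323 CPM in Ag 1 to 5. Its range was 364 to 575 CPM in Naive and 381 to 518 CPM in Ag+Costim. Ag 1 and Ag 4, the Ag libraries low in Ccr2, were the highest of all 15 libraries for Itgal, and Ag 5 was the lowest. The log2 fold changes were 0.26, -0.18 and 0.08 (SE 0.19 each; edgeR adjusted p = 0.363, 0.568 and 0.734) in the same order of comparisons. Itgb2, its beta partner, was at 632 ± 76.9, 745 ± 40.0 and 750 ± 94.7 CPM in Naive, Ag and Ag+Costim, and rose by 0.39 on the log2 scale in Ag+Costim vs Naive (SE 0.13, adjusted p = 0.0312). For Ag vs Naive the Itgb2 value was 0.33 (SE 0.13, adjusted p = 0.124).

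Selplg, the scaffold of the P-selectin ligand, was the steadiest of the 9, with a 1.75-fold range over 15 libraries. It was at 1485, 1458, 1687, 1454 and 1102 CPM in Naive 1 to 5, at 1364, 1298, 964, 1344 and 1366 CPM in Ag 1 to 5 and at 1197, 1116, 1073, 966 and 1087 CPM in Ag+Costim 1 to 5. Naive 5 and Ag 3 were the lowest of their groups. The log2 fold changes were -0.08, -0.16 and -0.25 (SE 0.12 each; edgeR adjusted p = 0.668, 0.402 and 0.111) for Ag vs Naive, Ag+Costim vs Ag and Ag+Costim vs Naive.

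PSGL-1 binds selectins only after glycosyltransferases have built sialyl Lewis X on it, and transcripts of these enzymes were measured too. Fut7, which adds the fucose, was at 4.60, 10.1, 4.43, 5.26 and 8.82 CPM in Naive 1 to 5, at 33.4, 10.6, 15.2, 41.6 and 17.6 CPM in Ag 1 to 5 and at 13.1, 13.8, 16.6, 27.7 and 14.4 CPM in Ag+Costim 1 to 5. The transferred groups did not overlap with Naive, and Ag 1 and Ag 4 were the highest libraries. Fut7 rose by 1.88 on the log2 scale in Ag (SE 0.37, edgeR adjusted p = 0.0136) and by 1.51 in Ag+Costim (SE 0.36, adjusted p = 0.00898), each against Naive. Gcnt1, which starts the core 2 branch, averaged 2.11 ± 2.22, 8.14 ± 3.18 and 4.74 ± 3.09 CPM in the 3 groups in that order (log2 fold change 1.99, SE 0.68, adjusted p = 0.0830 for Ag vs Naive).

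Levels of different genes were compared per length, as TPM, in which the estimated counts of each transcript were divided by its annotated length before scaling to a common total. In Naive the order of mean TPM was Selplg 1213 ± 198, Itgb1 290 ± 332, Cxcr3 152 ± 125, Cxcr6 147 ± 43.1, Itgal 142 ± 29.3, Itga4 94.0 ± 26.5, Ccr2 19.4 ± 14.4, Cx3cr1 5.31 ± 3.44 and Itga1 1.68 ± 0.868 (SD, n = 5). Neighbours from Itgb1 to Itga4 overlapped between libraries, while Selplg lay above all of them. In Ag+Costim, Itgb1 at 972 ± 94.8 TPM and Selplg at 922 ± 66.6 TPM overlapped, and Cxcr3 at 460 ± 49.0 TPM lay apart from both and from the next gene. Itgal, Cxcr6 and Itga4 followed at 135 ± 16.0, 115 ± 14.3 and 113 ± 23.8 TPM with overlapping ranges, then Ccr2 at 42.2 ± 16.5, Cx3cr1 at 1.59 ± 0.457 and Itga1 at 0.406 ± 0.189 TPM, each in a range of its own. In Ag, the order of means was Selplg 1006 ± 158, Itgb1 658 ± 127, Cxcr3 391 ± 76.7, Itgal 154 ± 67.3, Cxcr6 137 ± 39.6, Itga4 103 ± 34.7, Ccr2 25.5 ± 21.8, Itga1 2.27 ± 3.89 and Cx3cr1 1.34 ± 0.803 TPM.

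**Figure D4:**
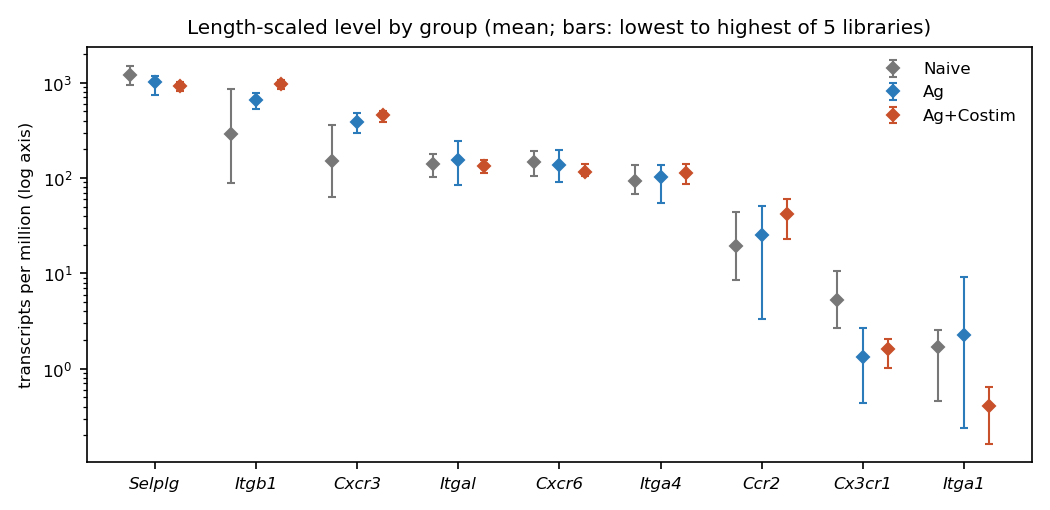
Mean length-scaled level of each gene in TPM on a log axis, by group, with bars from the lowest to the highest of 5 libraries. Selplg and Itgb1 lead in Ag+Costim, at 922 and 972 TPM, and Cx3cr1 and Itga1 lie lowest in all groups.

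Transcript shares within the 9 genes were tested with edgeR's exon-usage test on transcript counts for the 8 genes with at least 2 tested transcripts. None of the 8 was called in any comparison (at an unadjusted p under 0.05, 1, 0 and 2 genes for Ag vs Naive, Ag+Costim vs Ag and Ag+Costim vs Naive; limma's diffSplice also called 0). Over all 7501 genes tested, 0.640%, 0.947% and 1.23% were called in the same order. Itgal came nearest: the protein-coding transcript Itgal-201 held 0.0639 of the gene's counts on average among Naive libraries, 0.339 among Ag and 0.252 among Ag+Costim libraries (edgeR gene-level adjusted p = 0.0567 for Ag vs Naive and 0.0641 for Ag+Costim vs Naive).

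The Itgal-201 share was 0.0614, 0.510, 0.462, 0.0484 and 0.613 in Ag 1 to 5, so that Ag 1 and Ag 4 lay within the Naive range of 0.0415 to 0.121. In Ag+Costim 1 to 5 it was 0.186, 0.564, 0.290, 0.0276 and 0.194. Another protein-coding transcript of Itgal held most of the rest, with mean shares of 0.911, 0.632 and 0.721 in Naive, Ag and Ag+Costim. For Itgb1, the transcript annotated for nonsense-mediated decay had mean shares of 0.0125, 0.0553 and 0.130 in Naive, Ag and Ag+Costim (edgeR gene-level adjusted p = 0.598 for Ag+Costim vs Naive). Counts of that transcript are part of the Itgb1 level and of the ratio of Itgb1 to Itgb7 given above. Reads were single and 50 bases long per the labels, so these shares are estimates that rest on the few bases in which transcripts differ.

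**Figure D5:**
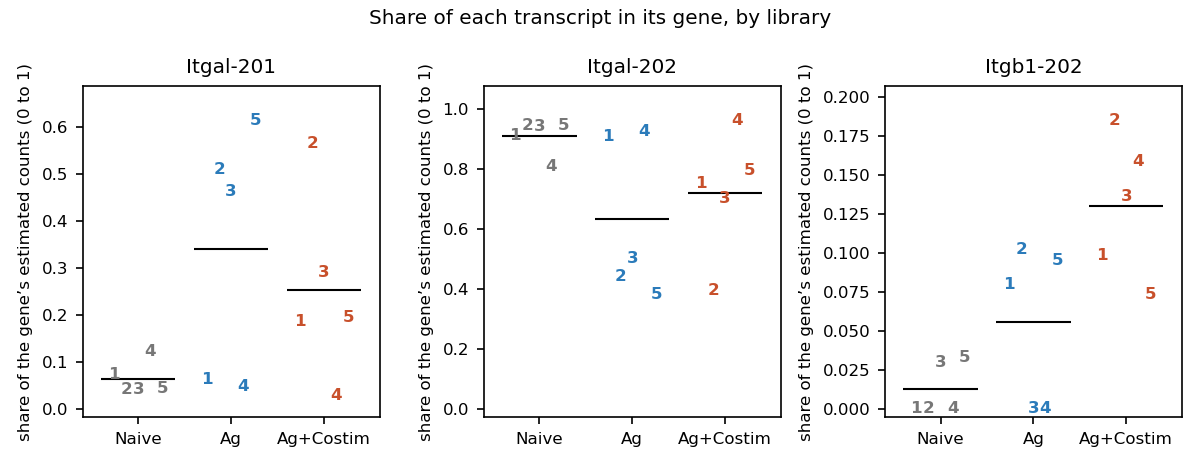
Share of the gene's estimated counts given to Itgal-201, to the most abundant Itgal transcript and to the Itgb1 transcript annotated for nonsense-mediated decay in each library, drawn as replicate numbers with lines at group means. Itgal-201 is at 0.0614 and 0.0484 in Ag 1 and Ag 4 and at 0.462 to 0.613 in the other Ag libraries.

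The other genes of these pathways were counted by list, to be read against the shares of all genes called, 3.05% higher and 3.66% lower in Ag vs Naive and 21.0% higher and 23.6% lower in Ag+Costim vs Naive. In Ag+Costim vs Ag these shares were 0.0288% and 0.00576%. There, 4647 of all 17366 genes had an unadjusted p under 0.05, against which the unadjusted counts of each list below are to be read. Of 10 other chemokine receptors tested, edgeR called 0 higher and 2 lower in Ag vs Naive and 0 higher and 4 lower in Ag+Costim vs Naive. Cxcr4, the receptor of CXCL12, fell by 1.37 on the log2 scale in Ag (SE 0.23, adjusted p = 0.00874) and by 0.85 in Ag+Costim (SE 0.23, adjusted p = 0.0133). The gut-homing receptor Ccr9 fell from a mean of 236 CPM in Naive to 19.8 in Ag and 1.22 in Ag+Costim (log2 fold changes -3.57 and -7.40, adjusted p = 0.0297 and 0.00152). Ccr7, which guides cells into lymph nodes, fell from 933 to 245 CPM in Ag+Costim (log2 fold change -1.77, adjusted p = 0.00297). For Ag+Costim vs Ag, 0 of the 10 were called, with 4 at an unadjusted p under 0.05.

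Of 18 other integrin chains tested, edgeR called 1 higher and 2 lower in Ag vs Naive and 3 higher and 5 lower in Ag+Costim vs Naive, and 0 in Ag+Costim vs Ag. Besides Itgb7 and Itgae, Itgb3 fell in Ag (log2 fold change -1.33, adjusted p = 0.0189) and in Ag+Costim (-0.83, adjusted p = 0.0326), Itgav fell in Ag+Costim (-0.84, adjusted p = 0.0150) and Itgad rose in Ag+Costim (1.59, adjusted p = 0.0232), each against Naive. Of 24 genes of integrin activation, 0 were higher and 3 lower in Ag and 4 higher and 9 lower in Ag+Costim. Rasgrp1, an activator of Ras proteins, fell from 383 CPM in Naive to 126 in Ag and 94.7 in Ag+Costim (adjusted p = 0.00749 and 0.00115), and Cytip, which restrains LFA-1 adhesion through cytohesin, fell in Ag (log2 fold change -0.75, adjusted p = 0.0185) and in Ag+Costim (-0.95, adjusted p = 0.00254). Rasgrp2, which activates Rap1, rose in Ag+Costim (0.77, adjusted p = 0.00214), as did Sipa1, which inactivates Rap1 (0.69, adjusted p = 0.00312), while Ptk2 (focal adhesion kinase) fell (-3.15, adjusted p = 0.00586).

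Of 5 integrin ligands tested, edgeR called 0 higher and 1 lower in Ag and 0 higher and 3 lower in Ag+Costim, each against Naive. Icam1, a ligand of LFA-1, fell in both (log2 fold changes -0.86 and -0.65, adjusted p = 0.0106 and 0.00886), and Icam2 in Ag+Costim (-0.63, adjusted p = 0.0102). Of 3 ligands of the 4 chemokine receptors with enough counts to test, 1 rose in Ag+Costim vs Naive: Cxcl10, a ligand of Cxcr3, at a mean of 5.92 against 2.47 CPM (log2 fold change 1.40, adjusted p = 0.0236). Neither list had a called gene in Ag+Costim vs Ag (0 of each), with 2 and 1 at an unadjusted p under 0.05.

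Of 19 genes of selectins and selectin ligands, edgeR called 1 higher and 1 lower in Ag and 4 higher and 4 lower in Ag+Costim, each against Naive. The galactosyltransferases B4galt1 and B4galt5 moved apart: B4galt1 fell by 0.72 and B4galt5 rose by 1.25 in Ag+Costim (adjusted p = 0.00387 and 0.00598), and B4galt1 also fell in Ag (by 0.63, adjusted p = 0.0188). None of the 19 was called in Ag+Costim vs Ag, with 6 at an unadjusted p under 0.05.

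Of 27 genes of chemokine receptor signalling, 6 were called higher and 2 lower in Ag and 8 higher and 6 lower in Ag+Costim, each against Naive by edgeR. Rgs1, which shortens G protein signalling, rose from 7.94 CPM to 24.9 in Ag and 23.0 in Ag+Costim (adjusted p = 0.0106 and 0.00367). Rgs10, of the same family, fell from 83.4 to 13.7 CPM in Ag+Costim (adjusted p = 0.00512), and the beta-arrestin Arrb1 from 17.0 to 2.13 CPM (adjusted p = 0.00548). The G protein gamma subunit Gng2 rose in Ag (log2 fold change 1.07, adjusted p = 0.0130) and in Ag+Costim (0.91, adjusted p = 0.00708). Pik3r5, a regulatory subunit of PI3-kinase gamma, fell in both (-0.75 and -0.47, adjusted p = 0.00614 and 0.0107). The count called in Ag+Costim vs Ag was 0 of the 27, with 6 at an unadjusted p under 0.05.

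Of 15 regulators of trafficking genes, edgeR called 0 higher and 4 lower in Ag and 4 higher and 7 lower in Ag+Costim, each against Naive. Tbx21, which encodes T-bet, an activator of Cxcr3 transcription, rose from 113 to 333 CPM in Ag+Costim (log2 fold change 1.68, SE 0.48, adjusted p = 0.0161). Bhlhe40 rose as well (1.86, adjusted p = 0.0338). Klf3 fell in both groups (log2 fold changes -1.65 and -2.14, adjusted p = 0.00581 and 0.000543), as did Klf13 (-1.18 and -1.21, adjusted p = 0.0378 and 0.0118), and Foxo1, which maintains Ccr7 in naive cells, fell in Ag+Costim (-1.53, adjusted p = 0.00490). Ag+Costim vs Ag gave 0 calls among the 15, with 3 at an unadjusted p under 0.05.

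The genes most like each of the 9 across all 15 libraries were found by the root mean square difference of log2(CPM + 1) after each gene was centred on its own mean, among 8463 protein-coding genes with a mean of at least 10 CPM. Among the genes nearest to Itgb1 were Litaf and Bcl2a1a, at 0.272 and 0.279 log2 units, where Itgb1 itself varied by 1.27 around its mean. Nearest to Cxcr3 were Serpinb6b, Arl4d and Smim3 at 0.196, 0.220 and 0.225, against its own 1.04. Nearest to Ccr2 were Prdm1, Gzma and Cercam at 0.407, 0.446 and 0.450, against 1.36. The distances were small beside the genes' own spread for Itgb1 (21.4% for Litaf) and Cxcr3 (18.9% for Serpinb6b).

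For Cx3cr1 the nearest genes were Rhebl1, Cxcr4 and mt-Nd1 at 0.547, 0.551 and 0.577, against its own 0.873, so that no gene followed it closely. Selplg was followed by Tpst2 (0.0663), Lamtor2 (0.0763) and Scp2 (0.0802) against its own 0.234, and Itgal by Nfatc1 (0.113), Npepps (0.121) and Irak4 (0.128) against 0.343. Cxcr6 was nearest to Tmem35b, Tmem230 and Mccc2 (0.162 to 0.169, against 0.328), Itga4 to Abcb10, Atf6 and Trim59 (0.238 to 0.258, against 0.455) and Itga1 to Mib1, Cop1 and Rgs2 (0.538 to 0.610, against 1.00). These likenesses rest on 15 libraries that share groups and lanes.

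Single libraries crossed group lines for these genes. Summed over the 9, CPM was 2780 to 3435 in Naive 1 to 4 and 5016 in Naive 5, against 4306 to 5291 in Ag and 4853 to 5238 in Ag+Costim. Naive 5 was also the library with the highest neutrophil and monocyte marker sums, 1109 and 197 CPM. In the deposited FPKM table, which was not used, the columns of Naive 5 and Ag 1 hold identical values, while their counts differ, and the group of Naive 5 was taken from its label.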

How the data were processed

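RNA of sorted CD8+ T cells was sequenced as SMART-Seq v4 and Nextera XT libraries, with single 50-base reads per the labels and the sequencing table (the methods give longer reads). Per the submitters' processing notes, HISAT2 2.1.0, SAMtools 1.9 and StringTie 2.1.0 were used with mm10, and R 4.0.5 with DESeq2 1.30.1. The deposited gene and transcript tables hold StringTie's estimated counts as whole numbers, not normalised. Neither the annotation release nor the read length set in StringTie is given in the sources used here. The deposited quality table gives a count of reads, the percent aligned and the lane per library, and a sample sheet the recorded sex. The authors' FPKM table was not used, because its columns for Ag 1 and Naive 5 are identical.

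Of 81881 gene entries, 55536 matched GENCODE M21 by identifier and version; 26248 entries named by a number alone held 0.0818% of counts and were left out. Libraries of 1 group differed from each other by more than sampling noise (chi-square per degree of freedom of at least 5.07). Counts of 15 libraries were fitted with edgeR 4.0.16 (filterByExpr, TMM, quasi-likelihood, 1 coefficient per group), with two-sided tests called at an adjusted p under 0.05 over all genes. Transcript shares were tested with diffSpliceDGE, calling a gene at an adjusted p under 0.05 with a transcript that passed too and changed its share by at least 0.1. Genes named from lists passed the test and averaged 5 CPM or more in whichever group was higher, up to the 2 highest and 2 lowest log2 fold changes per list; the 9 genes and the partners Itgb2, Itgb7, Itgae, Cxcr4, Fut7 and Gcnt1 were named whatever their values. Some genes that these rules name are not reported here. The 9 genes, the lists and the tests were chosen with earlier results of these data known. Alternatives used DESeq2 1.42.0, limma 3.58.1, other scalings, filters and covariates, and subsets of libraries. Fits were tested on simulated counts.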

Additional observations from a re-analysis of the deposited data

Results flagged for a closer look

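Within-group values of the 9 genes in CPM and of the log2 ratio of Itgb1 to Itgb7 were searched for a single library far from the other 4. Of the 30 sets of 5 libraries, 2 held one, where chance alone gives about 1 in 20, or 1.5. Both were in Ag 3. Itga1 was at 28.6 CPM there against 1.82 to 4.67 CPM in the other Ag libraries, a gap of 0.893 of the whole range. Selplg was at 964 CPM against 1298 to 1366 CPM, a gap of 0.831 of the range. Ag 3 had the lowest total count (4865952) and the highest erythroid marker sum (1243 CPM), and their part in these values was not tested.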

How the results depend on the processing

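In Ag vs Naive, 2 of the 9 genes were called. The count was 0 with no filter on low counts, 0 with the 2 groups fitted alone, 0 with lane as a term, 1 with recorded sex as a term, 4 without Ag 3 and Naive 5, 5 with voom and sample quality weights, 1 without Ag 2 and Ag 5, and 0 to 4 with 1 library left out. Of all genes, 208 of 48994 were called with no filter, 6 of 16742 with the 2 groups alone and 0 of 17366 with lane. The fits called 1241 of 17366 with sex, 3945 of 17263 without Ag 3 and Naive 5 and 3473 of 17366 with voom. They called 890 of 19290 without Ag 2 and Ag 5, and from 255 without Naive 1 to 3871 without Naive 5 with 1 library left out. In Ag+Costim vs Ag, 0 were called, against 1 with DESeq2, 2 with voom (Ccr2 and Itgal) and 1 without Ag 2 and Ag 5. Of all genes, 5582 of 48768 were called there with DESeq2, 9969 of 17366 with voom and 9751 of 19290 without Ag 2 and Ag 5. In Ag+Costim vs Naive, 3 were called, against 6 with the 2 groups alone, 2 with no filter on low counts (Cx3cr1 lost), 4 with library totals alone (Selplg added), 0 with lane as a term, 6 without Ag 3 and Naive 5, 8 with voom, 0 within lane 3 and 1 to 4 with 1 library left out. Of all genes, 10205 of 15751 were called with the 2 groups alone, 4158 of 48994 with no filter and 8118 of 17366 with library totals. The fits called 943 of 17366 with lane, 10103 of 17263 without Ag 3 and Naive 5, 13638 of 17366 with voom and 6343 of 18287 within lane 3. With 1 library left out they called from 3892 without Naive 4 to 9164 without Naive 5. The removal of Ag 2 and Ag 5, the libraries of low recorded input, was chosen after the data were seen. DESeq2 gave Itgb1 no adjusted p in Ag+Costim vs Naive, and its 3 calls there were Cxcr3, Cx3cr1 and Itga1. It called 9399 of 48768 genes in that comparison. The cause of these changes was not tested.

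Calls on transcript shares went from 0 to 1 (Itgal) in Ag+Costim vs Naive with the 2 groups alone, where 134 of all 6635 genes tested were called. They ranged from 0 to 1 with 1 library left out in both comparisons with Naive. The log2 ratio of Itgb1 to Itgb7 was not run with lane as a term or within a lane. It kept its direction under every alternative that was run. For Ag vs Naive it was 2.02 without Ag 3 and Naive 5 (exact permutation p = 0.0286) and 1.25 to 2.08 with 1 library left out. For Ag+Costim vs Ag it was 0.39 without Ag 2 and Ag 5 (exact permutation p = 0.0714), and for Ag+Costim vs Naive 1.67 to 2.51 with 1 library left out.

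Replicate numbers were not treated as pairs. Deviations of same-numbered libraries correlated from -0.324 to 0.470, and those of differently numbered libraries from -0.594 to 0.493. Recorded sex was the same for a given number in every group. With the replicate number as a block, 2, 0 and 3 genes were called in Ag vs Naive, Ag+Costim vs Ag and Ag+Costim vs Naive, and 0 on transcript shares. The blocked log2 ratio was 1.57, 0.43 (exact sign-flip p = 0.0625, the smallest it can give) and 2.0 (exact sign-flip p = 0.125).

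Single genes that changed sign did so below the threshold. Itga1 in Ag vs Naive was -0.16 with no filter, -0.53 with the replicate block, -0.24 with lane, -0.15 with sex, -1.09 without Ag 3 and Naive 5 and -0.58 with voom, and -1.15 to 0.53 with 1 library left out. Ccr2 in Ag vs Naive was -1.18 with voom and -0.11 without Ag 2 and Ag 5, and Cxcr6 was -0.01 to 0.19 with 1 library left out. In Ag+Costim vs Ag, with no filter Itgal was 0.07 and Selplg 0.07, and Selplg was 0.13 without Ag 2 and Ag 5. There Cx3cr1 was -0.11 with lane, -0.09 within lane 2 and -0.14 to 0.60 with 1 library left out, and Itgal -0.28 to 0.00. Itgal in Ag+Costim vs Naive was -0.07 with library totals alone, a scaling that moved the median of all genes from -0.08 to -0.23, and -0.01 to 0.23 with 1 library left out.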
